A study of Mus musculus with 12 samples.

Results

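The interferon response and JAK-STAT genes were the 47 of 770 panel genes whose names mark them as interferon-induced genes, type I interferons, interferon receptors, Janus kinases, STAT factors or interferon regulatory factors. They were chosen by name: those beginning with Ifi (other than Ifih1), Ifna, Ifnb, Ifngr, Irf, Irgm, Isg, Mx, Oas, Gbp, Stat or Jak, with Bst2, Usp18, Herc6, Xaf1 and Tyk2. By role they fall into 23 induced genes, 4 ligands, 3 receptors, 4 kinases and 13 transcription factors. Averaged over all samples, 41 of the 47 reached 20 counts and were tested, among 635 of the 770 genes. The 6 that were not tested were Ifi44l, Mx1, Ifna1, Ifna2, Ifna4 and Ifnb1.

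Interferons bind paired receptors at the cell surface, which carry Janus kinases. The kinases phosphorylate STAT factors, which enter the nucleus and switch on genes through short promoter motifs. Type I interferons (alpha and beta) act mainly through a STAT complex that holds Stat2 and Irf9, on the interferon-stimulated response element (ISRE), and interferon gamma through a STAT pair on the gamma-activated site (GAS). In tumours this response is known for antiviral effectors, antigen presentation and chemokines that draw T cells, and glucocorticoids are known to dampen parts of it.

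The samples were 12 primary mouse tumours labelled hepatocellular carcinoma, taken from fixed, paraffin-embedded tissue, with 3 in each of 4 groups. The groups were dICB, which is antibody to PD-1 with antibody to CTLA4, dICB with Dexa at 10 mg, dICB with Dexa at 200 mg, and isotype antibody. They are called dICB, 10 mg, 200 mg and isotype below. The labels give no strain, age, tumour line, body weight or dosing schedule, and no group with Dexa alone. They also leave unsaid whether replicates are different animals, so the p-values reflect only the variation among these replicates, part of which may be technical. A code in the labels, ICI7 or ICI10, has no stated meaning. All 3 dICB samples carried ICI10 and all 3 isotype samples ICI7, so the antibodies and the code cannot be told apart in that comparison. In the 10 mg group replicate 2 carried ICI10 and the others ICI7, and in the 200 mg group replicate 3 carried ICI7 and the others ICI10.

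Each sample gave 252994 to 428944 counts in all over its genes. Levels below are normalised counts, which are counts scaled to a mean library of 357620, and changes are log2 fold changes ± SE. A sample's background limit was the mean plus 2 SD of its negative control probes, which was 18.1 to 38.1 counts. Levels of different genes come from different probes and are not set against each other. Probes for the Ifit, Oas, Ifitm, Gbp and Mx families may also pick up close copies, and values of one such gene are uncertain. The epithelial and hepatocyte markers, all 8 on the panel, summed to 3216 to 6208 normalised counts, most of it C3, yet the hepatocyte-type genes C9 and Saa1 were above the limit in 0 of 12 samples.

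A gene was called where its edgeR p, adjusted over the 635 genes, was under 0.05. The 3 members called in any comparison were Gbp5, Ifit2 and Irf7, all higher in 200 mg than in isotype tumours. Their promoters are shown with those of Ifit1 and Isg15, classical targets of type I interferon. Each sequence comes from the 250 bases before a RefSeq transcript start on GRCm38.p6, 5′ to 3′ on the strand of the gene, less any bases inside the span of the gene itself. That span begins upstream of the transcript start used by 144 bases for Ifit2 and by 75 for Irf7, so that 106 and 175 bases are shown for them and 250 for the others. They are printed with matches to GAAANNGAAA (the core of the ISRE) or TTCNNNGAA (the GAS) in capitals, searched on both strands.
Gbp5 promoter, chr3:142496684-142496933, plus strand: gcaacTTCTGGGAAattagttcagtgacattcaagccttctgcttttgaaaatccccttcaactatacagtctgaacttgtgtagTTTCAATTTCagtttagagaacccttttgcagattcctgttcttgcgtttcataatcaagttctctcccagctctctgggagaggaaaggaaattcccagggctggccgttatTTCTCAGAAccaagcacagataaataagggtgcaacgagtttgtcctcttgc
Ifit2 promoter, chr19:34550444-34550549, plus strand: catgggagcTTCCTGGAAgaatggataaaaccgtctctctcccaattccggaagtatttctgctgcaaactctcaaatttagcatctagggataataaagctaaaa
Irf7 promoter, chr7:141266500-141266674, minus strand: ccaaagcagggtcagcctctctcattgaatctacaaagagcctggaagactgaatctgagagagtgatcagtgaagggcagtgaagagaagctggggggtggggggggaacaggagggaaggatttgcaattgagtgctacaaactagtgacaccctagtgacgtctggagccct
Ifit1 promoter, chr19:34640639-34640888, plus strand: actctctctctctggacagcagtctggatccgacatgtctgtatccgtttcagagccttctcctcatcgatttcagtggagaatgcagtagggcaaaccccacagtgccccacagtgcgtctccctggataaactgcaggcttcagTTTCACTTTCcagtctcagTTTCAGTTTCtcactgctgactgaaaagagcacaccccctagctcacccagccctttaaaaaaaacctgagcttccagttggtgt
Isg15 promoter, chr4:156200819-156201068, minus strand: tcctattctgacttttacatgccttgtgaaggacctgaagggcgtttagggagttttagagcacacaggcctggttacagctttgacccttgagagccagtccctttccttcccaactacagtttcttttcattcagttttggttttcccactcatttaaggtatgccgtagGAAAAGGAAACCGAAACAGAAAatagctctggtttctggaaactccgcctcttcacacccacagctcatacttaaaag

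The Gbp5 stretch held 1 ISRE core beginning 165 bases before the transcript start and 2 GAS matches, beginning 245 and 52 bases before it. That of Ifit1 held 2 ISRE cores, beginning at 104 and 85 bases, and that of Isg15 held 3 that overlap, beginning at 78, 72 and 66 bases. Ifit2 has 2 starts in the table, and the one shown held a GAS match beginning 241 bases before its transcript start and no ISRE core in these letters in its 250 bases. Neither motif was present in these letters in the 250 bases for Irf7. Promoters were found for 41 of the 47 members, and those without one in the table include Ifi27, Mx1, Mx2, Oas2 and Usp18. Over all listed starts of a gene, an ISRE core was present for 9 of 18 induced genes, 3 of 19 receptors and signalling genes and 3 of 4 ligands, against 3.46% of the 27025 genes in the table (2.98% of its 32851 promoters). A GAS match was present for 5 of 18 induced genes and 4 of 19 receptors and signalling genes, against 8.13% of all genes (7.02% of promoters). The sites are descriptions of letters and were not tied to any level here. By position, Gbp5 lies at chr3:142496934-142522344, Irf7 at chr7:141263183-141266499, and the Ifit2, Ifit3 and Ifit1 genes follow each other on chromosome 19, from base 34550550, where the span of Ifit2 begins, to base 34650009 at the end of Ifit1.

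The ligands and 2 induced genes gave no usable level. Ifna1, Ifna2, Ifna4 and Ifnb1, the type I interferons on the panel, were above the background limit in 0 of 12 samples each, with normalised counts between 4.47 and 23.8. Mx1, an antiviral GTPase, and Ifi44l were also above it in 0 of 12. These probes bound the level from above and carry no comparison. Ifng, the type II interferon and no member, was above the limit in 6 of 12 samples.

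Several samples stood apart among the members. Replicate 2 of the 10 mg group held the highest level of 15 of the 41 tested members and the lowest of 9, where over all 635 genes it held the highest of 13.7% and the lowest of 21.1%. It lay more than 2-fold from the mean of the other 11 samples in 9 members of 41 (22%) and in 13.2% of all genes. No other sample did so in more than 3 members. Stat2, a part of the type I complex, stood at 129 in this sample and between 367 and 680 in the other 11. Jak2, a kinase of the interferon gamma receptor, stood at 309 there and between 743 and 1591 elsewhere. Herc6, the ligase that attaches Isg15 to proteins in mice, stood at 105 against 178 to 361.

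Other induced genes were at their highest in the same sample. Xaf1, a promoter of apoptosis, stood at 945 there against 367 to 537 in the other 11 samples. Oasl1, known in mice to limit Irf7 translation, stood at 642 against 266 to 433, and Mx2, an antiviral GTPase, at 76.3 against 32.8 to 49.3. The sample thus held low values of some interferon pathway genes beside high values of others. Its total of 411178 counts lay within the range of the other samples. Housekeeping genes were at both ends in it too. Rpl19 stood at 29196 against 9485 to 21146 in the others, and Polr2a at 208 against 444 to 726, with Abcf1, Sap130 and Sdha also at their lowest. Its NK cell and B cell marker sums, 143 and 46.6, were the lowest of the 12. The part of these in the result was not tested.

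**Figure D1:**
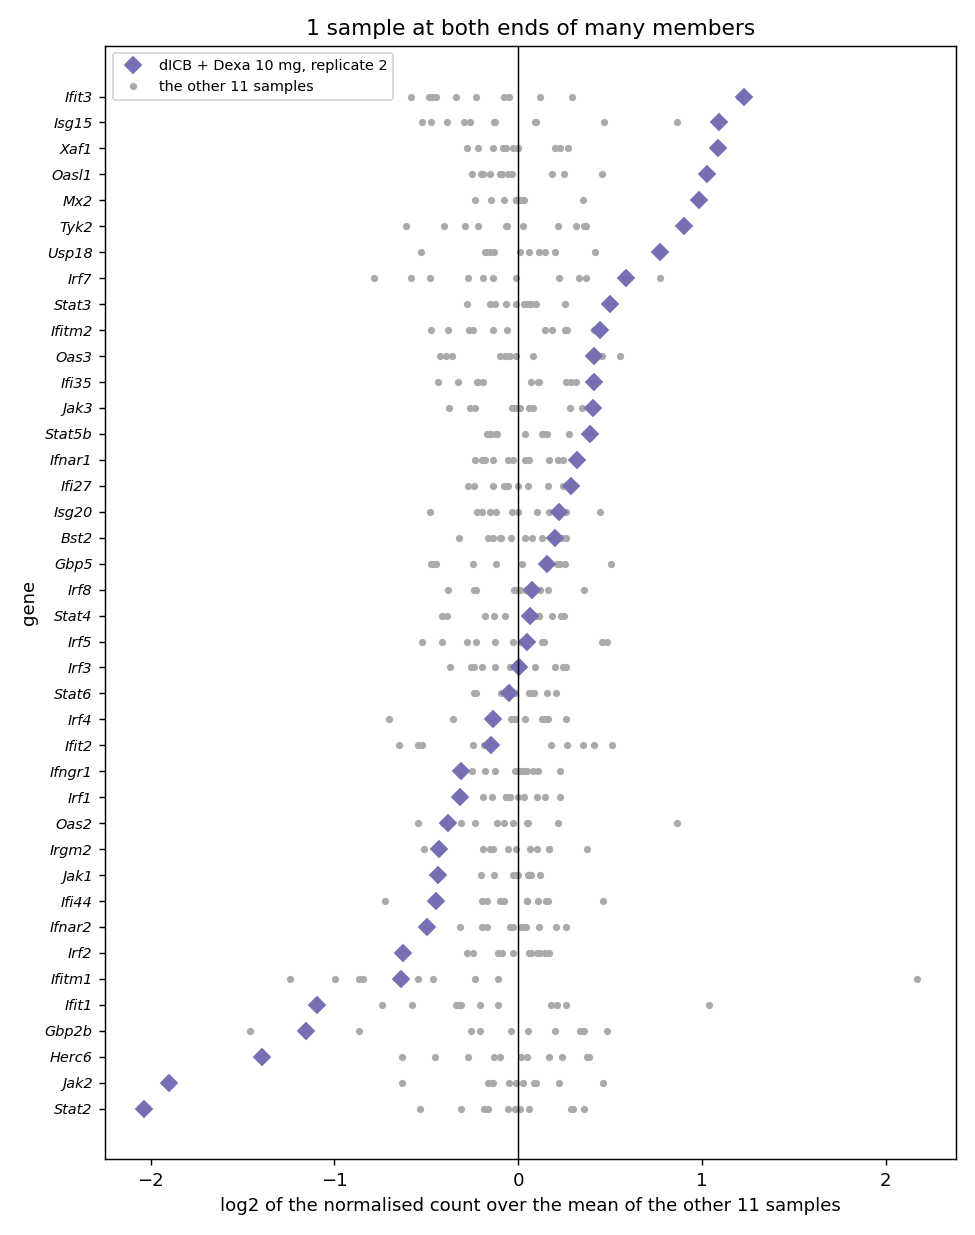
Replicate 2 of dICB with Dexa at 10 mg (diamonds) and the other 11 samples (dots) for 40 of the 41 tested members, as log2 of the normalised count over the mean of the other 11. Stat2 and Jak2 lie far to the left of every other sample and Xaf1, Oasl1 and Mx2 to the right.

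Replicate 1 of dICB held 306 normalised counts of Ifitm1, a membrane protein that blocks viral entry, where the other 11 samples held 28.7 to 62.9. Its summed neutrophil markers, 5 of 6 on the panel, were 18406 against 321 to 693 in the others; their part in the Ifitm1 level was not tested. Replicate 3 of the 200 mg group held the highest Ifit1, Ifit2, Oas2 and Irf7 of all 12 samples. These were 4 of the 41 tested members (9.76%), a smaller share than the 16.4% of all genes in which it was highest. Isotype replicate 1 held the lowest level of 7 of the 21 tested induced genes, where it held the lowest of 5.83% of all genes.

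**Figure D2:**
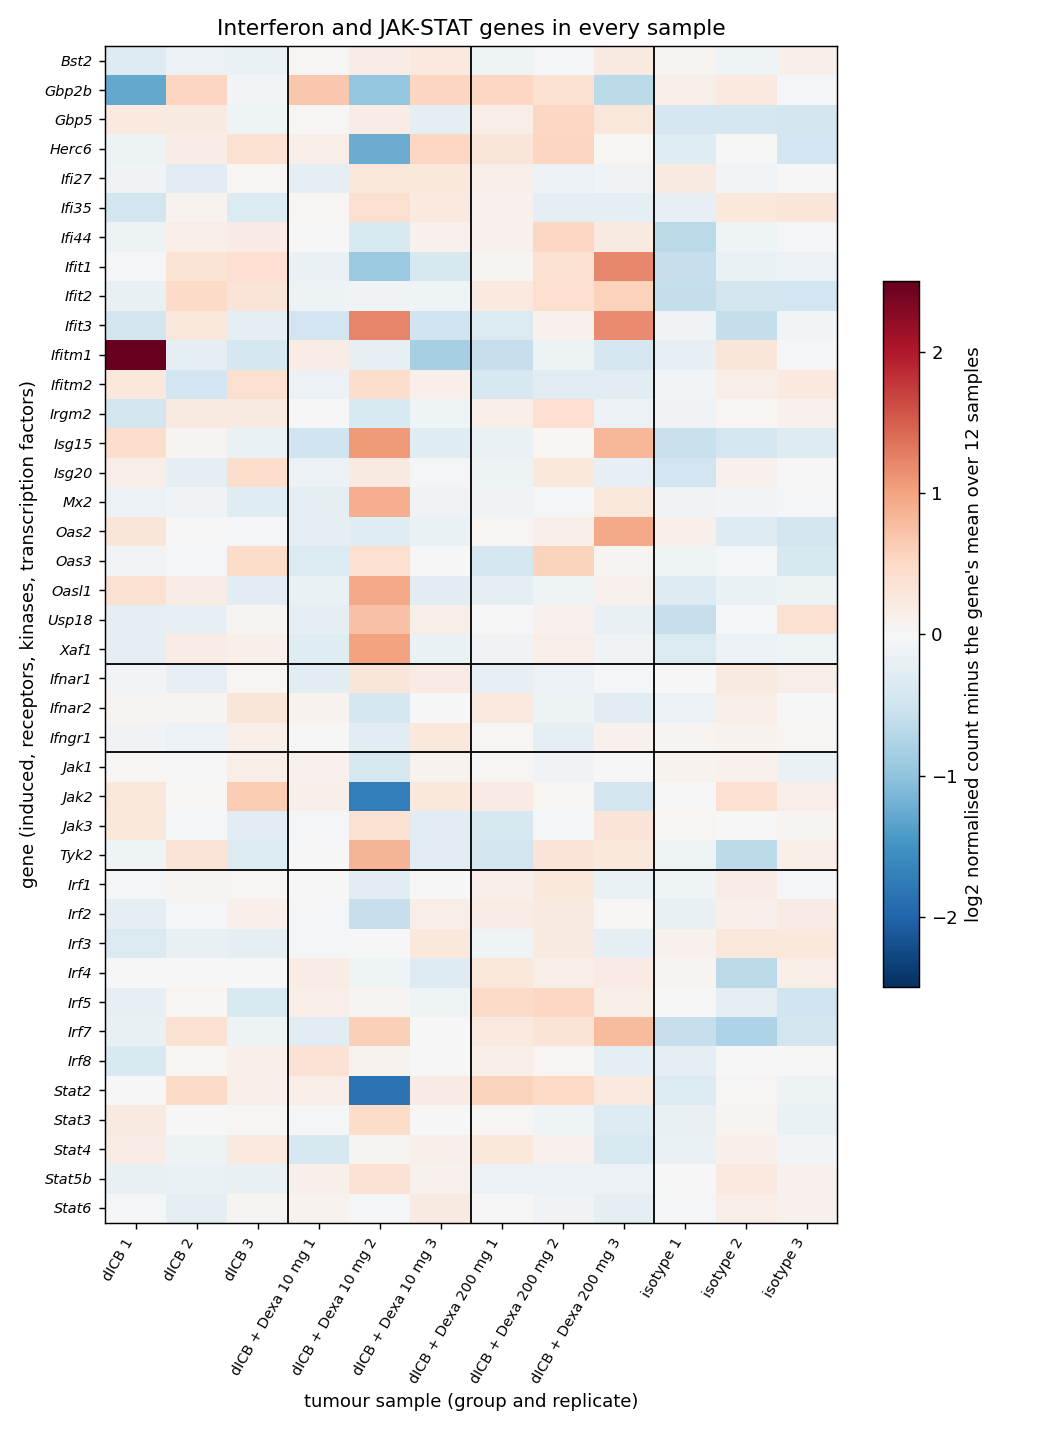
The 40 plotted members by sample, as log2 normalised count minus the mean of the gene over the 12 samples (red above, blue below). Groups run from dICB through 10 mg and 200 mg to isotype, and rows from induced genes through receptors and kinases to transcription factors. The 10 mg replicate 2 column holds both the darkest blue entries (Stat2, Jak2) and many red ones, and Ifitm1 is darkest red in dICB replicate 1.

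Whether high-dose Dexa with dICB left the interferon genes above the isotype level was asked by the 200 mg against isotype comparison, the one in which any gene passed the test. Gbp5, Ifit2 and Irf7 rose, and no member fell. With 3 of 41 members called against 13.2% of all genes (84 of 635), the members' share was below the background. That order depended on the scaling, as given below. Before adjustment 7 of 41 members had p under 0.05, against 32.3% of all genes. In 12 members every 200 mg sample lay above every isotype sample, against 20.9% of genes, and in 3 every one lay below, against 23.6%. The median log2 fold change was 0.14 over the 21 induced genes and 0.01 over the 20 receptors and signalling genes, against 0.03 over all genes.

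Gbp5, a guanylate-binding GTPase induced by interferon gamma, had 974, 1254 and 1056 normalised counts in 200 mg tumours, against 648, 643 and 637 in isotype tumours. The 200 mg samples all lay above the isotype samples, which differed little from each other. The change was 0.77 ± 0.17, with an adjusted p of 0.0171 by edgeR (n = 3 each, as in all comparisons). Gbp5 stood at 1035, 1023 and 812 in dICB and at 896, 986 and 746 in 10 mg tumours, so that all 9 treated samples lay above the isotype samples.

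Ifit2, an RNA-binding antiviral protein, had 230, 259 and 289 normalised counts in 200 mg tumours, against 130, 142 and 139 in isotype tumours. The groups did not overlap, and the change was 0.92 ± 0.21 (edgeR, adjusted p = 0.0171). In dICB tumours it stood at 171, 270 and 244 and in 10 mg tumours at 179, 183 and 181, again above every isotype sample.

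Irf7, the factor that drives transcription of the type I interferon genes and is itself induced by interferon, had 243, 262 and 356 normalised counts in 200 mg tumours, against 139, 121 and 149 in isotype tumours. The lowest 200 mg sample lay well above the highest isotype sample. The change was 1.07 ± 0.27 (edgeR, adjusted p = 0.0225). Levels were 182, 269 and 189 in dICB and 172, 312 and 206 in 10 mg tumours.

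The 3 calls rest on few samples. Gbp5, Ifit2 and Irf7 were all called in 8 of the 12 fits that left out 1 sample, and none of them was without isotype replicate 2, isotype replicate 3, 200 mg replicate 2 or 200 mg replicate 3. The log2 fold changes over the 12 fits ran from 0.64 to 0.85 for Gbp5, from 0.84 to 1.00 for Ifit2 and from 0.89 to 1.18 for Irf7, with adjusted p of up to 0.0863, 0.0812 and 0.108. Among samples coded ICI7, which leaves 200 mg replicate 3 alone against the 3 isotype samples with its spread assumed to be that of the other groups, the changes were 0.72 for Gbp5, 1.08 for Ifit2 and 1.38 for Irf7. The adjusted p-values there were 0.0687, 0.0530 and 0.0511. With the code as a covariate they were 0.0710, 0.0474 and 0.0720 by edgeR, so only Ifit2 of the 3 stayed under 0.05. The code effect in that fit came only from the 10 mg and 200 mg groups, which alone held both codes. No isotype sample carried ICI10, so that code gives no within-code value.

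Irf5, a factor that acts below Toll-like receptors in myeloid cells, had 479, 489 and 382 normalised counts in 200 mg tumours, against 343, 288 and 243 in isotype tumours. The groups did not overlap, but the change of 0.63 ± 0.20 had an adjusted p of 0.0558 by edgeR. Ifit1, which binds viral RNA lacking a host cap, had 55.4, 69.0 and 123 in 200 mg tumours, against 35.7, 47.2 and 48.2 in isotype tumours. Its value of 0.91 ± 0.31 (edgeR, adjusted p = 0.0669) was 0.50 without 200 mg replicate 3. Oas2, an oligoadenylate synthetase that switches on RNase L, had 111, 117 and 205 normalised counts in 200 mg and 116, 85.0 and 77.3 in isotype tumours. These groups overlapped, and its value of 0.63 ± 0.27 (edgeR, adjusted p = 0.126) was 0.29 without 200 mg replicate 3. Ifi44 was the remaining member with p under 0.05, at 0.54 ± 0.23 (edgeR, adjusted p = 0.130).

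Markers of other cells moved beside these genes. The 7 of 8 listed macrophage markers on the panel summed to 2094 to 2434 normalised counts in 200 mg tumours, against 1030 to 1641 in isotype tumours, without overlap. None of them was at 0, and Cd163 was above the background limit in 5 of 12 samples. The scavenger receptor Marco (2.27) and the macrophage genes Itgam (1.39) and Cd68 (0.85) were themselves called higher by edgeR in log2 fold change. Cd14, Cd163 and Mrc1 overlapped between the groups, with Mrc1 at 325 to 504 in 200 mg against 188 to 385 in isotype tumours. The dendritic cell sum, from 4 of 6 markers, was 224 to 321 in 200 mg against 167 to 194 in isotype tumours, with Flt3 above the limit in 0 samples and Xcr1 in 1. That gap lay in Itgax, which macrophages also express, at 135 to 248 against 96.5 to 105, while the other 3 summed to 73.3 to 98 against 70.3 to 95.3, which overlap. The NK cell sum, from 4 of 5 markers, was 218 to 273 against 186 to 191, with Klrb1c above the limit in 0 samples and Ncr1 in 1. Most of each sum was Klrk1, at 145 to 194 in 200 mg against 117 to 125 in isotype tumours. Eomes was above the limit in 7 of 12 samples. Genes of the epithelial and hepatocyte list were split. Epcam was lower, at 114 to 134 in 200 mg against 187 to 248 in isotype tumours, as were Egfr, at 214 to 242 against 384 to 471, and the transferrin receptor Tfrc, at 252 to 316 against 442 to 1032. All 3 were called by edgeR, with log2 fold changes of -0.84 for Epcam (adjusted p = 0.0302), -0.94 for Egfr (adjusted p = 0.0383) and -1.29 for Tfrc (adjusted p = 0.0225). C3, a complement protein made by hepatocytes and macrophages, was at 4037 to 5169 in 200 mg against 2605 to 3370 in isotype tumours and was not called (edgeR, adjusted p = 0.0780). Cfb of the same list was also higher, at 334 to 432 in 200 mg against 255 to 301 in isotype tumours, without overlap. Cdh1 just overlapped, at 17.9 to 30.98 against 30.97 to 39.2, and was above the limit in 8 of 12 samples. The T cell sums overlapped, at 655 to 1136 in 200 mg and 643 to 844 in isotype tumours. The part of these markers in the result was not tested, and more cells of a type cannot be told apart from more RNA per cell in such tissue.

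The scaling bears on the size of these values. The 20 housekeeping genes of the panel had a median log2 fold change of -0.56 in this comparison, with 6 of them called lower and 1, Alas1, called higher. Scaling to them in place of TMM moved the median of all genes to 0.55. The members called rose to 15 of 41, while the genes called among all 635 rose from 84 to 166. With that scaling the members' share was above that of all genes, where with TMM it was below. The directions of Gbp5, Ifit2 and Irf7 were the same under both.

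**Figure D3:**
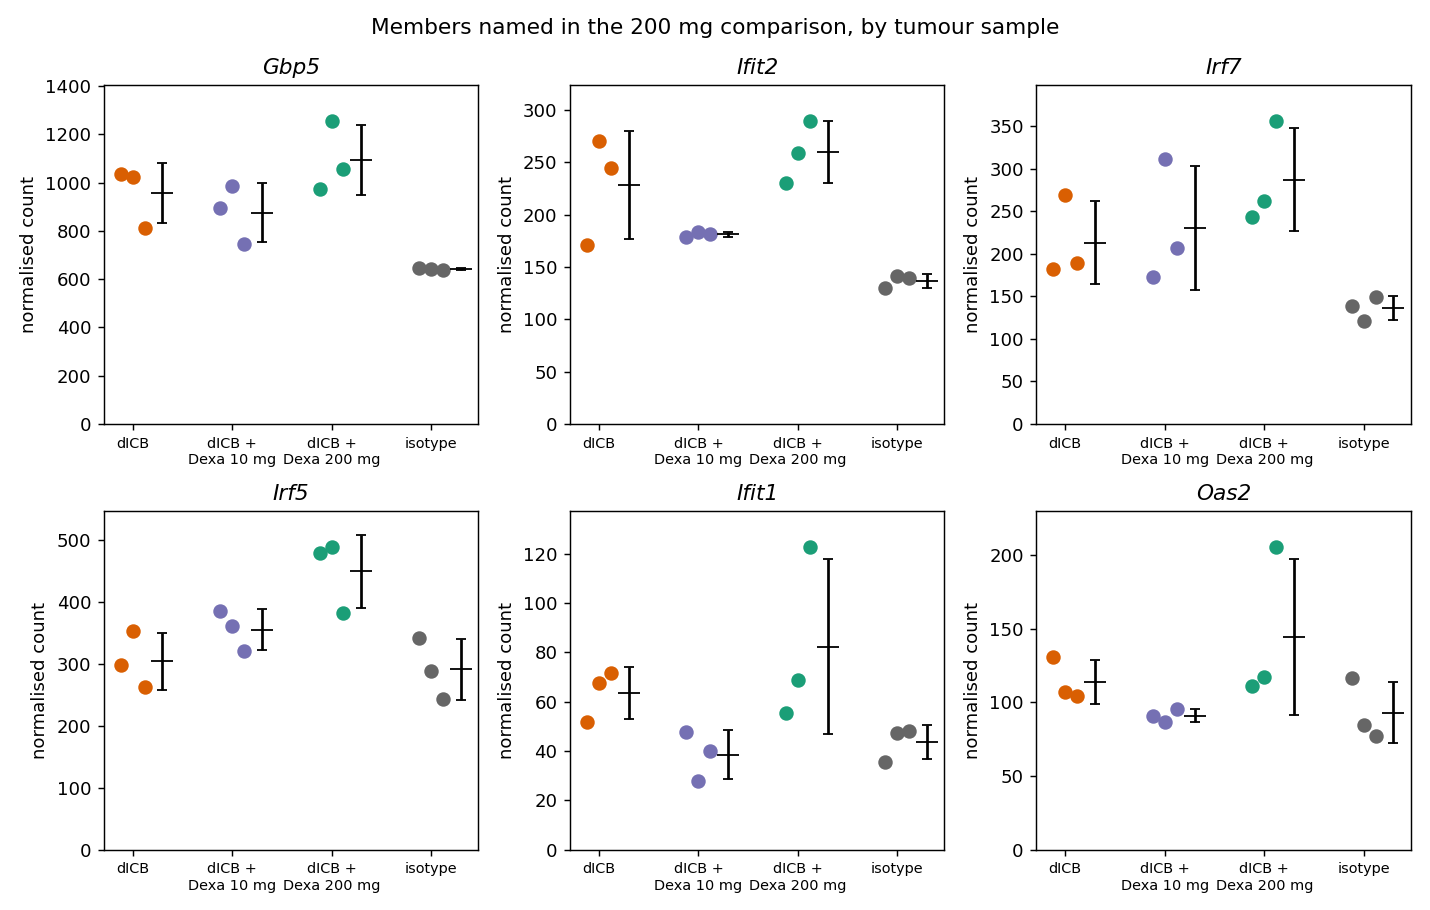
Normalised counts of 6 members in each sample (points), with the mean and SD of each group beside them (bars, n = 3), for dICB, dICB with Dexa at 10 mg and at 200 mg, and isotype. All 9 treated samples lie above the isotype samples for Gbp5, Ifit2 and Irf7, while the high Ifit1 and Oas2 means of the 200 mg group rest largely on replicate 3.

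**Figure D4:**
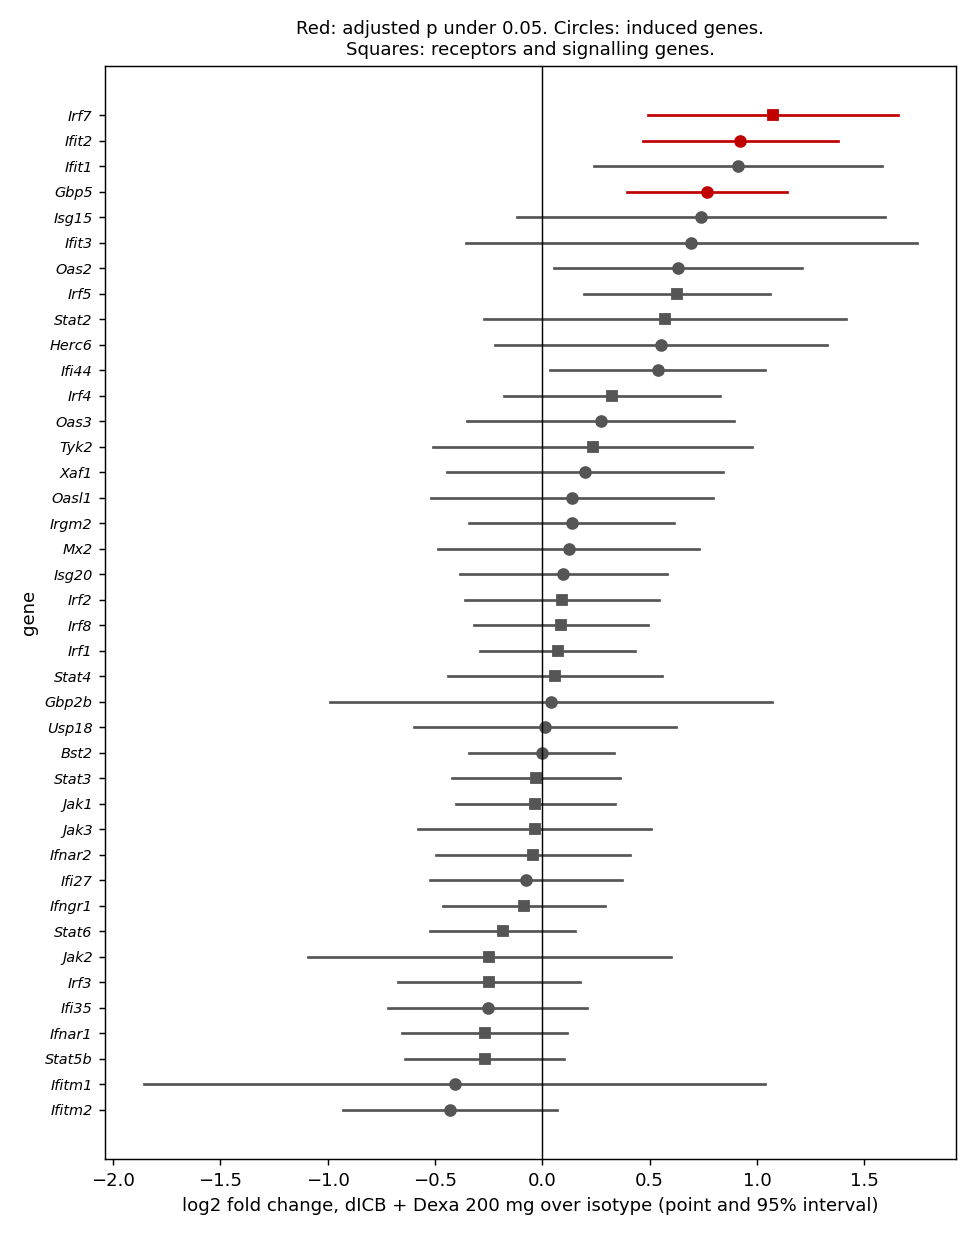
Log2 fold change of dICB with Dexa at 200 mg over isotype for 40 of the 41 tested members (point, with a 95% interval from edgeR). Irf7, Ifit2 and Gbp5, in red, had an adjusted p under 0.05, and the intervals of most other members span 0.

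The remaining effectors did not pass the test in that comparison. Isg15, a ubiquitin-like modifier, had 127, 148 and 252 normalised counts in 200 mg tumours and 96.7, 106 and 113 in isotype tumours. Those groups did not overlap, yet replicate 3 set much of the 200 mg mean. In dICB it stood at 192, 148 and 127, and in 10 mg tumours at 100, 296 and 116. Ifit3, which partners Ifit1, had 214, 294 and 622 in 200 mg and 256, 180 and 261 in isotype tumours, with 199, 332 and 231 in dICB and 195, 634 and 193 in 10 mg. The 2 highest values thus came from 1 sample in each Dexa group. Usp18, which strips Isg15 from proteins and dampens the type I receptor, had 246, 262 and 216 in 200 mg and 164, 238 and 316 in isotype tumours, with 209, 213 and 256 in dICB and 209, 404 and 272 in 10 mg. Irgm2, an immunity-related GTPase, had 504, 609 and 411 in 200 mg and 428, 466 and 491 in isotype tumours, with 329, 528 and 527 in dICB and 452, 348 and 422 in 10 mg. For Usp18 and Irgm2 all 4 groups overlapped.

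The receptors lay within narrow ranges. Ifnar1, a chain of the type I receptor, had 441, 455 and 490 normalised counts in 200 mg tumours, against 513, 593 and 563 in isotype tumours. Every 200 mg sample was below every isotype sample, with an adjusted p of 0.323 by edgeR. In dICB it stood at 482, 437 and 521 and in 10 mg tumours at 425, 624 and 582. Ifngr1, a chain of the interferon gamma receptor, ran from 969 to 1187 in dICB, from 887 to 1289 in 10 mg, from 923 to 1162 in 200 mg and from 1113 to 1137 in isotype tumours. Ifnar2, the other type I chain, ran from 244 to 411 over all 12 samples.

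Among the kinases, Jak1, which serves both receptors, had 732, 726 and 798 normalised counts in dICB, 772, 543 and 764 in 10 mg, 735, 671 and 722 in 200 mg and 766, 768 and 640 in isotype tumours. All 4 groups overlapped, with 10 mg replicate 2 the lowest sample. Jak2 had 1231, 1043 and 1591 in dICB, 1115, 309 and 1223 in 10 mg, 1172, 1047 and 743 in 200 mg and 1028, 1344 and 1143 in isotype tumours. Tyk2, a kinase of the type I receptor, had 76.7, 103 and 65.5 in dICB, 81.6, 150 and 68.8 in 10 mg, 60.5, 103 and 99.8 in 200 mg and 77.0, 52.4 and 93.0 in isotype tumours. Jak3, which signals for cytokines that share the common gamma chain, ran from 96.3 to 166. In none of the 6 comparisons did a kinase or a receptor have an unadjusted p under 0.05.

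Stat2 had 466, 648 and 511 normalised counts in dICB, 525, 129 and 534 in 10 mg, 680, 654 and 553 in 200 mg and 367, 474 and 427 in isotype tumours. All 200 mg samples lay above all isotype samples, with an adjusted p of 0.336 by edgeR. Without 10 mg replicate 2, which is in neither group but enters the shared estimate of the spread, Stat2 was called in that comparison. Stat3, known as the effector of the interleukin-6 family, had 859, 737 and 757 in dICB, 713, 1019 and 745 in 10 mg, 752, 688 and 594 in 200 mg and 648, 770 and 659 in isotype tumours.

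Irf1, an interferon-induced factor that activates antigen presentation genes, had 2694, 2886 and 2821 normalised counts in dICB, 2734, 2265 and 2737 in 10 mg, 3030, 3304 and 2475 in 200 mg and 2560, 3124 and 2699 in isotype tumours. Irf8, a factor of myeloid cell development, had 469, 629 and 663 in dICB, 782, 642 and 614 in 10 mg, 683, 627 and 521 in 200 mg and 516, 605 and 600 in isotype tumours. Neither had an unadjusted p under 0.05 in any comparison. Irf4, a lymphocyte factor, was above the background limit in 4 of 12 samples and Stat4, which carries interleukin-12 signals, in 9. Irf2, which opposes Irf1, ran from 283 to 492, and Stat6, which carries interleukin-4 signals, from 522 to 711.

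What checkpoint antibodies alone did to these genes was asked by dICB against isotype. None of the 41 members was called, nor was any of the 635 genes (0%), by edgeR. Before adjustment 4 members had p under 0.05, against 20% of genes. In 6 members every dICB sample was above every isotype sample, against 9.92% of genes, and in 4 below, against 12.8%. The induced genes had a median log2 fold change of 0.26 and the receptors and signalling genes 0.06, against 0.03 over all genes. The members of smallest p were Ifit2 at 0.74 ± 0.21, Gbp5 at 0.57 ± 0.17, Irf7 at 0.65 ± 0.27 and Irf3 at -0.47 ± 0.20. Their adjusted p-values by edgeR were 0.105 for Ifit2 and Gbp5, 0.192 for Irf7 and 0.194 for Irf3. Irf3, which starts Ifnb1 transcription on viral sensing, had 119, 134 and 130 normalised counts in dICB, against 163, 184 and 182 in isotype tumours, without overlap. Ifit2 was called by DESeq2 (adjusted p = 0.0215), and Gbp5 by edgeR without dICB replicate 3 (adjusted p = 0.0496). The macrophage sum was 1644 to 2960 in dICB against 1030 to 1641 in isotype tumours, and the dendritic cell sum 206 to 251 against 167 to 194, neither overlapping. The macrophage sums of the groups nearly met, and the highest, 2960, came from dICB replicate 1, the sample of the high neutrophil sum. Of the dendritic cell markers, Itgax was at 106 to 172 in dICB against 96.5 to 105 in isotype tumours. The other 3 summed to 79.0 to 99.8 against 70.3 to 95.3, which overlap. The housekeeping genes had a median log2 fold change of -0.49, and in 10 of 20 every dICB sample lay below every isotype sample. The part of these in the values was not tested.

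Adding Dexa at 10 mg to dICB gave no call among the members or over all genes (0%). Before adjustment 4 members had p under 0.05, against 9.45% of genes. In 3 every 10 mg sample was above every dICB sample, against 3.78% of genes, and in 2 below, against 4.09%. The median was 0.05 over induced genes and 0.07 over receptors and signalling genes, against -0.01 over all genes. Without 10 mg replicate 2 the induced median was -0.21. Bst2, which tethers virus to the cell surface, had 945, 1059 and 1103 normalised counts in 10 mg, against 738, 837 and 822 in dICB tumours, without overlap. Its value was 0.37 ± 0.16 (edgeR, adjusted p = 0.470), with 859, 896 and 1087 in 200 mg and 972, 865 and 1010 in isotype tumours. Stat5b, which carries growth hormone and interleukin-2 signals, had 260, 304 and 255 in 10 mg, against 209, 210 and 207 in dICB tumours. The dICB samples lay within a few counts of each other, and the value was 0.39 ± 0.17 (edgeR, adjusted p = 0.491). Ifit1 had 47.7, 27.9 and 40.1 in 10 mg, against 51.7, 67.6 and 71.5 in dICB tumours, at -0.71 ± 0.31 (edgeR, adjusted p = 0.481). Ifitm1, at -1.58 ± 0.64 (edgeR, adjusted p = 0.454), turned to 0.13 without dICB replicate 1. Among samples coded ICI10, which leaves 10 mg replicate 2 alone against the 3 dICB samples with its spread assumed to be that of the other groups, 6 members were called, of 28 genes. Stat2 (-2.07), Jak2 (-2.06) and Herc6 (-1.41) were lower there, and Ifit3 (1.32), Mx2 (1.08) and Xaf1 (0.97) higher. No dICB sample carried ICI7.

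At 200 mg against dICB no member was called, nor any gene (0%). Before adjustment 2 members had p under 0.05, against 8.50% of genes. In 5 every 200 mg sample was above every dICB sample, against 5.04% of genes, and in 0 below, against 3.78%. The induced median was 0.14 and that of receptors and signalling genes 0.05, against -0.02 over all genes. Irf5 had 479, 489 and 382 normalised counts in 200 mg, against 299, 353 and 262 in dICB tumours. The groups did not overlap, and the value was 0.56 ± 0.20 (edgeR, adjusted p = 0.387). Irf7 was at 0.43 ± 0.26 and Ifitm2, a relative of Ifitm1, at -0.41 ± 0.23 (edgeR, adjusted p = 0.595 for both). Ifitm2 had 1939, 2133 and 2095 in 200 mg, against 3041, 1821 and 3357 in dICB tumours, which overlapped. Ifitm1, at -1.73 ± 0.65 (edgeR, adjusted p = 0.445), was -0.04 without dICB replicate 1. Over the 12 fits that left out 1 sample, no member was called in this comparison or in the 10 mg against dICB one, and none was in this comparison among samples coded ICI10.

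The doses were set against each other in 200 mg against 10 mg, where no member and no gene was called (0%). Before adjustment 3 members had p under 0.05, against 12% of genes. In 4 every 200 mg sample was above every 10 mg sample, against 9.61% of genes, and in 2 below, against 12.1%. The induced median was -0.03 and that of receptors and signalling genes -0.0014, against 0.05 over all genes, and the induced median was 0.21 without 10 mg replicate 2. Ifit2 was at 0.52 ± 0.21 and Oas2 at 0.66 ± 0.27 (edgeR, adjusted p = 0.326 for both). Ifit2 had 230, 259 and 289 normalised counts in 200 mg, against 179, 183 and 181 in 10 mg tumours. Oas2 had 111, 117 and 205 in 200 mg, against 90.8, 86.6 and 95.8 in 10 mg tumours, and its value was 0.32 without 200 mg replicate 3. Neither pair of groups overlapped. Stat5b was at -0.35 ± 0.17 (edgeR, adjusted p = 0.407), with 215, 214 and 213 in 200 mg tumours. Ifit1 had 55.4, 69.0 and 123 in 200 mg, against 47.7, 27.9 and 40.1 in 10 mg tumours, and did not overlap either. It had the smallest p of the members here, at 1.09 ± 0.31 (edgeR, adjusted p = 0.299), and its value was 0.68 without 200 mg replicate 3. Among samples coded ICI10, with replicate 2 the lone 10 mg sample, 5 members were called, of 23 genes. Stat2 (2.36), Jak2 (1.84) and Herc6 (1.67) were higher in 200 mg tumours there, and Mx2 and Xaf1 (-0.97 each) lower. Among samples coded ICI7, with replicate 3 the lone 200 mg sample, 0 members were called.

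In 10 mg against isotype no member and no gene was called (0%). Before adjustment 3 members had p under 0.05, against 8.35% of genes. In 5 every 10 mg sample was above every isotype sample, against 8.03% of genes, and in 0 below, against 5.04%. The induced median was 0.16 and that of receptors and signalling genes -0.0030, against -0.03 over all genes, and the induced median was -0.02 without 10 mg replicate 2. Among the members of smallest p were Irf7 at 0.76 ± 0.27, Gbp5 at 0.45 ± 0.17 and Ifit2 at 0.41 ± 0.21. Their adjusted p-values by edgeR were 0.499 for Irf7 and Gbp5 and 0.662 for Ifit2. Without 10 mg replicate 2, Irf7 was at 0.45, and among samples coded ICI7, which leave that sample out, 0 members were called. The comparisons of dICB, 10 mg and 200 mg with isotype share the same 3 isotype samples.

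Of 38 other interferon pathway genes listed by role, 35 were on the panel and 34 were tested. In 200 mg against isotype, 3 of the 34 were called higher and 0 lower, against 13.2% of all genes in either direction. Mean counts here are given ± SD, and log2 fold changes ± SE. Cxcl9, a chemokine that draws T cells and is induced by interferon gamma, averaged 2860 ± 493 normalised counts in 200 mg and 1614 ± 190 in isotype tumours, at 0.82 ± 0.20 (edgeR, adjusted p = 0.0201). H2-K1, a class I antigen presentation molecule, averaged 1280 ± 132 in 200 mg and 673 ± 175 in isotype tumours, at 0.93 ± 0.23 (edgeR, adjusted p = 0.0225). Il12rb2, a chain of the interleukin-12 receptor, was at 1.03 ± 0.30 (edgeR, adjusted p = 0.0385) but above the background limit in 7 of 12 samples. Cd274, the PD-1 ligand, averaged 1377 ± 282 in 200 mg and 747 ± 23 in isotype tumours, at 0.88 ± 0.27 (edgeR, adjusted p = 0.0512). In the other 5 comparisons 0 of the 34 were called.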

How the data were processed

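Expression of 770 genes was counted in 12 tumour samples, 3 in each of 4 groups taken from the labels. Per the labels' protocols, total RNA came from fixed tissue with Qiagen's miRNeasy FFPE kit. The authors deposited whole-number counts per probe, with 6 positive and 8 negative controls and no normalisation visible in the values; the sources used here name neither the instrument nor the software. Background was left in, so changes of genes near it are understated.

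Genes averaging at least 20 counts were tested with edgeR 4.0.16 (R 4.3.3). After TMM scaling, which takes most genes as unchanged, the 4 group means were fitted together by quasi-likelihood (8 residual degrees of freedom). The 6 comparisons used two-sided tests, each adjusted by Benjamini-Hochberg across its 635 genes, with a threshold of 0.05. Each SE was derived from the log2 fold change and its F statistic, and is approximate. The groups of 3 limit precision, and counts carry counting error besides.

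Members and lists were chosen with earlier results of these data known. Genes were given by sample if they had 1 of the 4 smallest p-values of a comparison or belonged to a list of core pathway genes, and 1 tested member is counted but not reported here; Ifi44, Xaf1, Oasl1, Mx2 and Herc6 were added after their values were seen. Sequences are from RefSeq, GRCm38.p6; all 47 names matched its gene table. Alternatives used DESeq2 1.42.0, limma 3.58.1, other scaling factors, other filters, a block for replicate number, the code as a covariate, and fits without single samples.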

Additional observations from a re-analysis of the deposited data

How the results depend on the processing

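The 3 members called higher in 200 mg against isotype kept their direction under every alternative run, and their call depended on the setting. Among samples coded ICI7, 200 mg replicate 3 is alone in its group, and the changes of the 3 members are given above. The number called in 200 mg against isotype was 5 by DESeq2, 15 with housekeeping gene factors and 7 in a fit of the compared groups alone. It was 7 without both samples that stood apart (dICB replicate 1 and 10 mg replicate 2), and 0 to 5 when single samples were left out. In dICB against isotype it was 1 by DESeq2, 3 with housekeeping factors, 1 without both samples that stood apart and 0 to 1 without single samples. Among samples coded ICI10, a fit chosen after seeing the data in which 10 mg replicate 2 is the lone 10 mg sample, 6 members were called in 10 mg against dICB and 5 in 200 mg against 10 mg. Over all genes, the 84 called in 200 mg against isotype became 166 with housekeeping factors and 29 with the code as a covariate. They became 181 in the compared groups alone and 169 without both samples that stood apart. They were between 0 and 136 when single samples were left out, with 13 or fewer without isotype replicate 2 or 3 or 200 mg replicate 2 or 3. In dICB against isotype 0 genes became 31 by DESeq2, 45 with housekeeping factors and 42 without dICB replicate 3. Same-numbered samples did not correlate over 0.1 in every pair of any comparison, so the numbers were not taken as pairs. With the replicate block, 4 members were called in 200 mg against isotype and 0 in the other comparisons. Irf5 stood at 0.63 there in 200 mg against isotype (edgeR, adjusted p = 0.0474). Counts over all genes are not given here for DESeq2 or the replicate block in that comparison, so those counts of members carry no share.

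The list medians are log2 fold changes, and scaling moved them with the median of all genes, which with housekeeping factors became 0.46 in dICB against isotype, -0.19 in 10 mg and 0.07 in 200 mg against dICB, 0.32 in 200 mg against 10 mg, 0.23 in 10 mg against isotype and 0.55 in 200 mg against isotype. With positive control factors it became 0.15, 0.14, 0.17, 0.08, 0.25 and 0.34 in the same order, which all values below follow. With housekeeping factors the induced median was 0.72, -0.12, 0.24, 0.23, 0.44 and 0.69, and that of receptors and signalling genes 0.49, -0.10, 0.14, 0.29, 0.26 and 0.55. With positive control factors the induced median was 0.39 in dICB against isotype, 0.33 in 200 mg against dICB, 0.47 in 10 mg against isotype and 0.48 in 200 mg against isotype. That of receptors and signalling genes was 0.17, 0.21 and 0.24 in the first 3 comparisons and 0.28 and 0.36 in the last 2. With the code as a covariate, the induced median in dICB against isotype was -0.039 and that of receptors and signalling genes -0.056. That of receptors and signalling genes in 10 mg against dICB was 0.12. The code effect in that fit came only from the 10 mg and 200 mg groups, as all dICB samples carried ICI10 and all isotype samples ICI7. In the 10 mg group it set replicate 2 against the others. The dICB against isotype values therefore do not separate the antibodies from the code. Background subtraction gave receptors and signalling genes -0.078 in 200 mg against 10 mg and -0.067 in 200 mg against isotype. Without both samples that stood apart, the induced median was -0.16 in 10 mg against dICB, 0.018 in 200 mg against dICB, 0.21 in 200 mg against 10 mg and 0.0078 in 10 mg against isotype, and that of receptors and signalling genes -0.012 in 10 mg against dICB.

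Among ICI7 samples the induced median was 0.15 in 200 mg against 10 mg, 0.0069 in 10 mg against isotype and 0.25 in 200 mg against isotype, and that of receptors and signalling genes -0.065 in 200 mg against 10 mg and -0.083 in 200 mg against isotype. Among ICI10 samples the induced median was 0.30 in 10 mg against dICB and -0.27 in 200 mg against 10 mg, and that of receptors and signalling genes 0.079 in 200 mg against 10 mg. Leaving out single samples, the induced median ran from 0.17 to 0.27 in dICB against isotype, -0.21 to 0.15 in 10 mg against dICB, 0.036 to 0.24 in 200 mg against dICB, -0.16 to 0.21 in 200 mg against 10 mg, -0.018 to 0.24 in 10 mg against isotype and 0.096 to 0.24 in 200 mg against isotype. That of receptors and signalling genes ran from -0.040 to 0.082, -0.031 to 0.15, 0.020 to 0.066, -0.077 to 0.11, -0.070 to 0.061 and -0.029 to 0.096 in the same order. Of single members, Ifitm1 in 10 mg against dICB was -1.58 with all samples, 0.085 without both samples that stood apart and 0.13 without dICB replicate 1, the sample of high Ifitm1, and between -2.01 and that value without single samples. The cause of the other shifts was not tested. Irf4, Stat4 and the interferon genes themselves lie near or under the background limit, where a change is understated or cannot be seen, and groups of 3 leave wide intervals.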
